A study of Homo sapiens with 8 samples.

Results

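The classical cadherin and desmosome genes followed here are CDH1, CDH3, DSP, PKP3, JUP, PERP, DSG2, DSG3, DSC2 and DSC3, 10 of the 36601 genes counted. As rows they were picked by symbol, with earlier results of these data known. They were read in HMLE, a line of human mammary epithelial cells made immortal for culture, in which the growth factor TGF-β can bring on epithelial-to-mesenchymal transition (EMT). The study looked for intermediate cell states of this transition, and used pyridostatin, a small molecule that binds the folded DNA form called the G-quadruplex, to ask whether such structures bear on it. Transcripts were counted as unique molecular identifiers (UMIs) by a 5′ droplet assay in 4 mRNA libraries, each matched to a library of short barcoded oligonucleotides (SBOs) that mark which of 12 pooled samples a cell came from. The labels name the same line for every library, with no genotype, and tie no barcode from SBO01 to SBO12 to a treatment or a time. The barcode populations are therefore described by value, and treated cells are not set against untreated ones. Libraries 1 and 2 held the 6 barcodes up to SBO06, called the first pool here, and libraries 3 and 4 the 6 from SBO07 on, called the second pool. Each population is 1 labelled sample read in 2 libraries, and nothing in the labels says that those are separate cultures.

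Classical cadherins are transmembrane proteins that hold neighbouring epithelial cells together at adherens junctions and bind catenins inside the cell. Desmosomes are a second kind of junction, built from the desmosomal cadherins (desmogleins and desmocollins), the linkers plakoglobin and plakophilin, and desmoplakin, which ties the complex to keratin filaments. Loss of E-cadherin, and of junctions with it, is a textbook feature of EMT, and in stratified epithelia the desmosomal cadherin isoforms change between the basal and the upper layers.

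The cadherin genes lie in clusters. CDH1 occupies chr16:68737292-68835537 and CDH3 chr16:68645310-68733771, next to each other on the plus strand of GRCh38.p14. DSC3 (chr18:30989365-31042742) and DSC2 (chr18:31058840-31102421) lie on the minus strand of chromosome 18, and DSG3 (chr18:31447741-31478702) and DSG2 (chr18:31498177-31549008) on its plus strand. DSP (chr6:7541671-7586714) and PERP (chr6:138088505-138107419) are on chromosome 6, PKP3 (chr11:392596-404908) on chromosome 11 and JUP (chr17:41754609-41786711) on chromosome 17. CDH1, CDH3, DSG2 and DSC2 each overlap 1 antisense gene, and whether the counting used strand is not given in the sources used here. Those antisense genes held 43 UMIs against 18651 for CDH1, 0 against 48715 for CDH3, 26 against 21899 for DSG2 and 93 against 14696 for DSC2.

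After filtering, 22147 cells were kept, and 11072 of them carried a single barcode. The libraries held 139331790 to 179421284 gene UMIs, and the 12 populations 352 to 1864 cells with 8589593 to 48844485 UMIs. In 63.1% of the cells of SBO12, 29.7% of SBO11, 20.2% of SBO02 and 16.5% of SBO04 another barcode had more UMIs than the one assigned. In SBO05 this was so in 0% of the cells. Of the cell barcodes, 899 occurred in more than 1 library. Levels are given in CPM, the UMIs of a gene scaled to the same total in every population. The epithelial markers EPCAM, KRT5, KRT14, KRT8, KRT18 and KRT19 summed to 1723 CPM in SBO05 and to 8801 to 13007 CPM in the other populations, so the labelled epithelial identity was weakest in SBO05. Stromal fibroblast markers summed to 325 CPM in SBO05 and to 52.3 to 137 CPM elsewhere, leukocyte markers to 40.2 and to 13.2 to 31.5 CPM, with 3 of 8 at 0 UMIs in every population, and endothelial markers to 1.33 and to 0.251 to 3.09 CPM. The part of these markers in the results was not tested.

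Every member was lowest in SBO05, and both library values of SBO05 lay below both library values of every other population (of the 6097 genes that averaged 20 CPM or more, 29.2% were lowest there). E-cadherin (CDH1), the classical cadherin of epithelial adherens junctions, stood at 10.8 and 8.02 CPM in SBO05 in libraries 1 and 2, against a lowest value of 38.6, a median of 65.6 and a highest of 100.3 CPM in the other 11 populations. P-cadherin (CDH3), the classical cadherin of basal and myoepithelial cells, stood at 24.3 and 16.6 CPM in SBO05, against 143 to 212 CPM with a median of 176 elsewhere. Set against the median of the other 5 populations of its own pool, SBO05 held 10.5% of CDH1 (95% counting interval 9.49 to 11.6%) and 10.6% of CDH3 (9.87 to 11.3%). The classical cadherins were thus about equally low there, and the CDH3 to CDH1 ratio of SBO05, 2.19, lay inside the range of 2.07 to 3.69 of the other populations.

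The desmosomal cadherins were not equally low. Desmocollin 2 (DSC2), a widely expressed desmosomal cadherin, stood at 7.42 and 4.62 CPM in SBO05, against 38.4 to 77.5 CPM with a median of 51.7 elsewhere. Desmocollin 3 (DSC3), an isoform of basal layers, stood at 4.99 and 4.35 CPM in SBO05, against 21.8 to 53.8 CPM with a median of 27.6. Desmoglein 3 (DSG3), the basal desmoglein that is the autoantigen of pemphigus vulgaris, stood at 3.71 and 2.02 CPM in SBO05, against 13.5 to 26.0 CPM with a median of 19.2. Desmoglein 2 (DSG2), the widely expressed desmoglein of simple epithelia and heart, stood at 34.3 and 31.0 CPM in SBO05, against 58.1 to 96.6 CPM with a median of 72.4. As a share of the pool median SBO05 held 9.16% of DSC2 (8.07 to 10.4%), 13.6% of DSC3 (11.7 to 15.6%) and 13.4% of DSG3 (11.1 to 16.0%), but 37.4% of DSG2 (35.5 to 39.5%). The interval of DSG2 lies above those of the other 9 members, and the DSG3 to DSG2 ratio was 0.0897 in SBO05 and 0.172 to 0.419 in the other populations. The intervals here cover counting error of the SBO05 count only.

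Among the plaque genes, plakoglobin (JUP), which links cadherins of both junctions to the inside of the cell, stood at 42.2 and 30.2 CPM in SBO05, against 209.9 to 296 CPM with a median of 225 elsewhere. Desmoplakin (DSP), the link to keratin, stood at 61.3 and 57.0 CPM in SBO05, against 198 to 401 CPM with a median of 294. Plakophilin 3 (PKP3), which gathers desmosomal proteins at the membrane, stood at 26.1 and 26.8 CPM in SBO05, against 89.3 to 136 CPM with a median of 104. PERP, a membrane protein of desmosomes in stratified epithelia and a p53 target, stood at 122.7 and 95.5 CPM in SBO05, against 467 to 855 CPM with a median of 548. SBO05 held 13.7% of the pool median of JUP, 19.0% of DSP, 19.8% of PERP and 25.8% of PKP3.

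All 10 members were at least 2-fold lower in SBO05 than the median of its pool, where 7.43% of the 6097 genes were. One of them, DSG3, had a mean of 18.4 CPM, below the minimum set for that background. The median of the 10 members was -2.60 on the log2(CPM + 1) scale and that of all 6097 genes -0.01. SBO05 is 1 culture sample, so these are sizes with no test, and fewer transcripts per cell cannot be told apart here from fewer cells that express a gene, a point taken up per cell below.

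**Figure D1:**
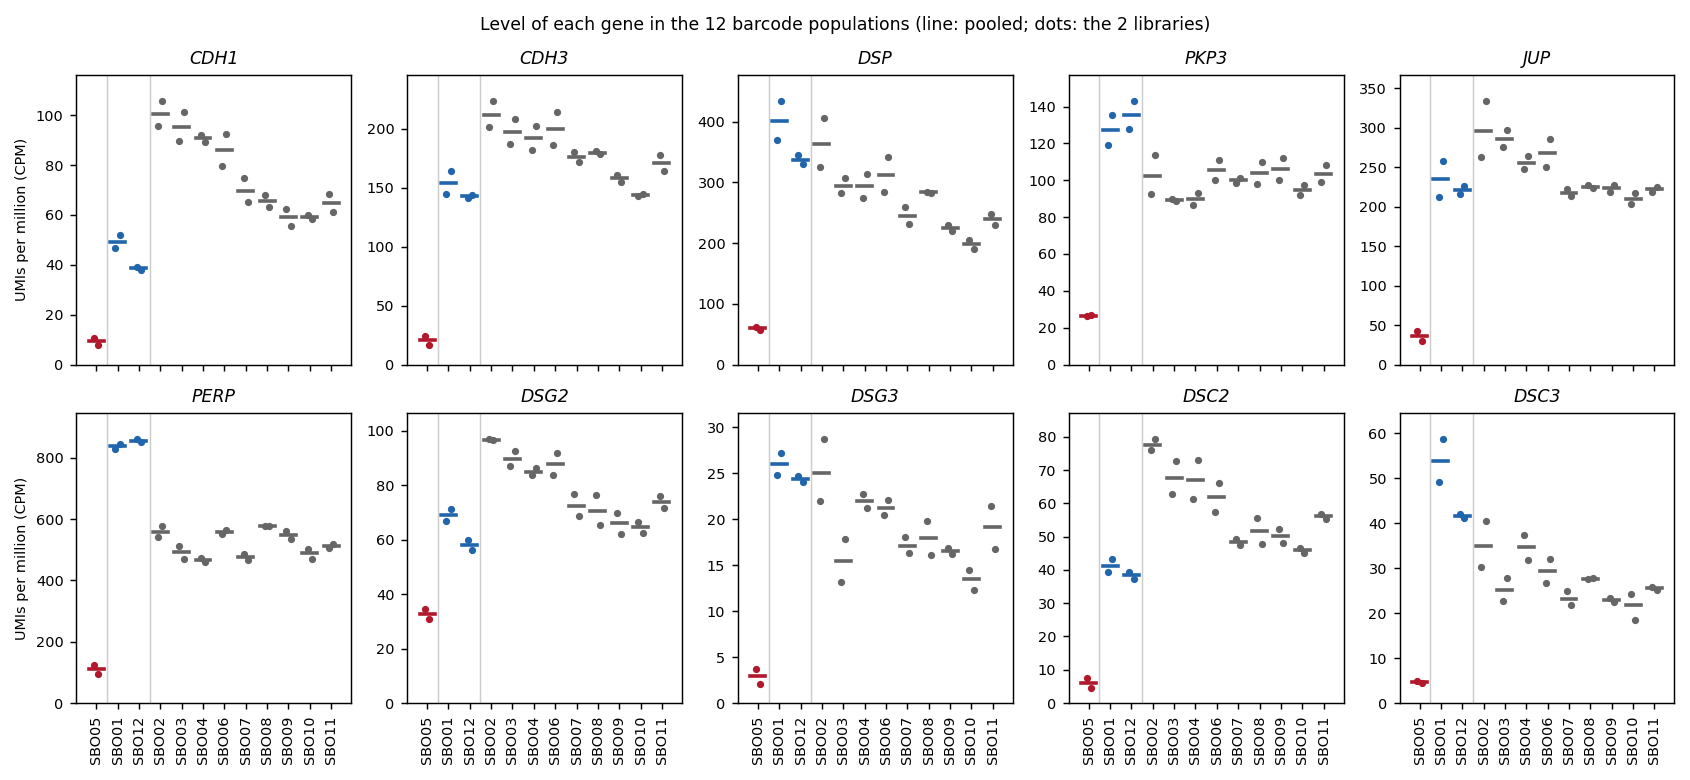
Level in CPM (vertical axis, from 0) of the 10 genes in the 12 barcode populations (horizontal axis), with a line for the pooled value and dots for the 2 libraries; red is SBO05, blue SBO01 and SBO12, grey the other 9. SBO05 is lowest in every panel, while PERP and DSC3 are highest in SBO01 and SBO12 and CDH1 and DSC2 are next lowest there.

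The rest of the junction machinery was followed through lists of other cadherins, catenins and nectins, other desmosome proteins, and a list named regulators of CDH1. That last list mixes EMT repressors with epithelial regulators, splicing regulators among them, so its counts do not speak to the regulation of CDH1. Of the other desmosome genes 3 averaged 20 CPM or more, and all 3 were at least 2-fold lower in SBO05. Plakophilin 2 (PKP2) stood at 4.78 CPM against a pool median of 40.2, periplakin (PPL), a cytoskeletal linker of the plakin family, at 5.50 against 35.4, and plakophilin 1 (PKP1) at 17.9 against 38.8 CPM. Of the 7 catenins and nectins at that level 3 passed the same fold, namely nectin 4 (NECTIN4, an adhesion molecule of the immunoglobulin family) at 6.42 against 26.1 CPM, p120 catenin (CTNND1, which stabilises cadherins at the membrane) at 40.5 against 99.2, and afadin (AFDN, which links nectins to actin) at 46.5 against 97.6 CPM. The other 4 differed less than 2-fold, among them β-catenin (CTNNB1) at 111 CPM in SBO05 against 133 and α-catenin (CTNNA1) at 170.0 against 227 CPM. Of the 4 regulators of CDH1 at that level, 3 were lower. The epithelial transcription factor ELF3 stood at 21.7 against 223 CPM and the epithelial splicing regulators ESRP1 and ESRP2 at 4.97 against 40.4 and 3.33 against 20.3 CPM. The single other cadherin at that level, H-cadherin (CDH13), which has no transmembrane part, stood at 41.7 CPM in SBO05 against 26.9 CPM, less than 2-fold apart, and passed the rule for SBO01 and SBO12 given further on. N-cadherin (CDH2), the cadherin gained in EMT, has a mean below 20 CPM and was looked at after its values were seen. It stood at 42.8 CPM in SBO05 against a pool median of 10.7 CPM. The other regulators of CDH1 are also below 20 CPM on average, and were likewise looked at after their values were seen. ZEB1, ZEB2 and TWIST1 were more than 2-fold higher in SBO05, at 5.62 against 0.541, 16.1 against 2.17 and 37.96 against 14.98 CPM. GRHL2, OVOL1, OVOL2, TP63 and KLF8 were more than 2-fold lower, and SNAI1, SNAI2 and TCF4 differed less than 2-fold.

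The 250 bases before the gene starts of the members were read from the RefSeq promoter table of GRCh38.p14. It held 7 of the 10 members, namely DSP, JUP, PERP, DSG2, DSG3, DSC2 and DSC3, and no entry for CDH1, CDH3 and PKP3. The search was for the E-box letters CAGGTG and their reverse complement CACCTG, which the EMT repressors of the SNAI and ZEB families are known to bind. DSC2 (chr18:31102422-31102671, minus strand), DSG2 (chr18:31497927-31498176, plus strand) and DSP (chr6:7541421-7541670, plus strand) held them, which is 3 of the 7 windows, against 17.5% of all 35116 windows in the table. They are shown because DSC2 was the lowest and DSG2 the least low member in SBO05 relative to the pool, and DSC3 (chr18:31042743-31042992, minus strand), which holds neither, is shown for the isoform pair with DSC2. Each is written 5′ to 3′ on the strand of the gene and capitals mark the E-box letters.
DSC2: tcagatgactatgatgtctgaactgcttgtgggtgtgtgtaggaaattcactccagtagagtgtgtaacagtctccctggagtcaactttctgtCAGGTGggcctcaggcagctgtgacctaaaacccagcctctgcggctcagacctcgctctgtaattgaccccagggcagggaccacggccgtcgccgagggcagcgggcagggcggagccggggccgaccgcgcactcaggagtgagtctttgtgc
DSG2: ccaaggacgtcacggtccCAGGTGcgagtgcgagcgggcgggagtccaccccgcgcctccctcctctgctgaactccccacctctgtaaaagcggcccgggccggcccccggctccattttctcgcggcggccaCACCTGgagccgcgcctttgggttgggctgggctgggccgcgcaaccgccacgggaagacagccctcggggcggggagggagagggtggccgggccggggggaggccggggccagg
DSP: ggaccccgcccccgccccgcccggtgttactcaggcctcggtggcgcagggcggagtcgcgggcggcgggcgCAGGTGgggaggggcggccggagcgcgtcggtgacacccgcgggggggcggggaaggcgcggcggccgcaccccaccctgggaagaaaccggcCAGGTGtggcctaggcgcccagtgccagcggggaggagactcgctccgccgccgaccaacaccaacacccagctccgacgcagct
DSC3: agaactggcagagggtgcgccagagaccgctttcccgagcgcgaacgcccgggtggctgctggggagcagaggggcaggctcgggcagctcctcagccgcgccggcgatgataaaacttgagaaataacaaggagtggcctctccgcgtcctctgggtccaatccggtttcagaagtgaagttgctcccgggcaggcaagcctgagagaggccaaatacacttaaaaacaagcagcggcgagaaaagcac

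A pattern of 4 runs of at least 3 G separated by 1 to 7 bases, on either strand, was found in the windows of DSP, PERP, DSG2 and DSC2, which is 4 of the 7, against 23.5% of all windows. Windows can hold both patterns, and stretches that match them can overlap. DSG2 and DSP held the E-box letters 2 times each and DSC2 once. In SBO05 DSG2 stood at 37.4%, DSP at 19.0% and DSC2 at 9.16% of the pool median, and the 4 members whose window at the gene start lacked the letters, DSG3, DSC3, JUP and PERP, stood at 13.4 to 19.8%. The table holds a further window for JUP (chr17:41785977-41786226), with the E-box letters 2 times and the G pattern, and one for DSC2 (chr18:31101261-31101510), with the G pattern only. Neither lies at the gene start, and the shares of all windows include such further starts. No binding was measured, and the part of either pattern in the SBO05 levels was not tested.

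Per cell, SBO05 cells rarely carried cadherin transcripts. In cells thinned to 10000 UMIs each, a step that leaves out 17 to 138 shallower cells per population, a CDH1 UMI was found in 7.47% of 1726 SBO05 cells (exact 95% binomial interval 6.28 to 8.82%) and in 29.4 to 52.1% of the cells of the other populations. CDH3 was found in 12.2% of SBO05 cells (10.7 to 13.9%) and in 70.8 to 79.1% elsewhere, and DSC2 in 3.48% (2.66 to 4.45%) and in 29.9 to 49.7% elsewhere. DSG2 was found in 26.7% (24.6 to 28.9%) of SBO05 cells and in 41.1 to 59.3% elsewhere. Free RNA of the members can reach SBO05 droplets from the other cells of the pool, and its part in the SBO05 shares was not tested. PTPRC, a leukocyte gene that HMLE cells should lack and that therefore does not measure it, was found in 0 of the 1726 SBO05 cells, which allows a share of up to 0.174%, and in at most 0.151% of the cells of any other population. Without thinning, CDH1 was found in 13.5% of SBO05 cells and in 64.3 to 81% elsewhere. Neither classical cadherin was found in 82.5% of SBO05 cells, against 12.8 to 20.8% in the other populations. The median cell had 2 of the 10 genes in SBO05 and 5 or 6 elsewhere, and the 10 genes together gave a median of 2 UMIs in SBO05 and 12 to 18 elsewhere.

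**Figure D2:**
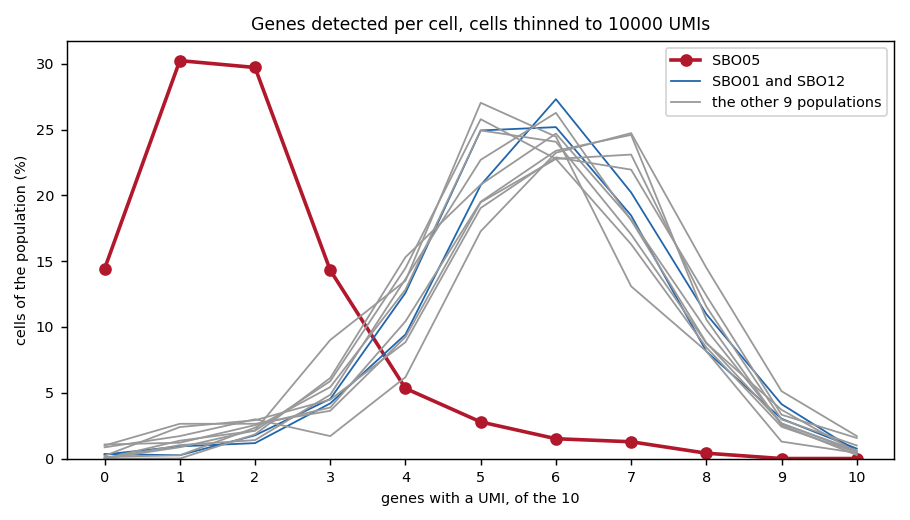
Percent of the thinned cells of each population (vertical axis) by how many of the 10 genes had a UMI (horizontal axis), red for SBO05, blue for SBO01 and SBO12 and grey for the other 9 populations. The SBO05 curve peaks at low numbers, with 14.4% of its cells at 0, and the other curves peak at 5 to 7 genes.

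A small number of SBO05 cells held much of its cadherin RNA. The lowest lower quartile of summed UMIs of the 10 genes in the other populations was 9, and 93 of the 1726 SBO05 cells (5.39%, interval 4.37 to 6.56%) reached it, against 77.0 to 93.6% of the cells of the other populations. The share was 6.63% in library 1 and 3.63% in library 2. To keep a gene out of its own choice of cells, the same rule was applied to the other 9 genes. The 6.49% of SBO05 cells chosen without DSC2 held 53.1% of the DSC2 UMIs of SBO05, and the 6.55% chosen without CDH1 held 37.7% of its CDH1 UMIs. Likewise 5.50% of the cells held 37.7% of CDH3 and 5.21% held 38.3% of DSG3. For DSG2 5.79% of the cells held 11.9%, for PKP3 5.68% held 17.5% and for DSP 6.32% held 19.2%. JUP, DSC3 and PERP lay between, with 31.7, 30.4 and 28.8% in 7.01, 5.39 and 8.75% of the cells. DSG2, PKP3 and DSP RNA was therefore spread over more of the SBO05 cells than DSC2, DSG3 and classical cadherin RNA. The shares of DSG3, DSC3 and DSC2 rest on few UMIs, 122, 195 and 255 in SBO05 before thinning.

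The 93 cells differed from the other SBO05 cells in genes the choice did not use. Their epithelial markers summed to 8221 CPM, against 1190.5 CPM in the remaining 1633 SBO05 cells and 10970.0 CPM in the other 5 populations of the pool. EPCAM, an epithelial adhesion molecule, stood at 204 CPM in the 93 cells, at 17.0 in the remaining SBO05 cells and at 286 in the other populations of the pool. The mesenchymal intermediate filament vimentin (VIM) stood between, at 1123 CPM in the 93 cells, 3509 CPM in the remaining SBO05 cells and 267 CPM in the other populations. In the same order of groups, CDH2 at 23.0, 43.8 and 7.34 CPM and SPARC at 448, 708 and 429 CPM also stood between. Fibronectin (FN1), another mesenchymal marker, went the other way. It stood at 1569 CPM in the 93 cells, 870 CPM in the remaining SBO05 cells and 1555 CPM in the other populations. The 93 cells held a median of 32961 UMIs before thinning, against 21363 in the remaining SBO05 cells and 27874 in the other populations. No other barcode was higher in any SBO05 cell (0%). Pairs of cells from 1 sample cannot be seen by the barcodes, and the part of such pairs or of cells wrongly given SBO05 was not tested. The choice by summed UMIs used CDH1, CDH3 and DSC2, so low values of these in the remaining cells follow in part from it. In the remaining 1633 cells CDH1 stood at 5.46, CDH3 at 11.4 and DSC2 at 2.45 CPM. These are cells of 1 sample near a limit on a score, so the values describe a range of cells and not a cell type.

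SBO01 and SBO12 are the populations with the highest basal keratins. With SBO05 set aside, both lay above all of the other 9 populations in 3 of the 10 members and below all in 2. PERP stood at 837 CPM in SBO01 and 855 CPM in SBO12, against 467 to 578 CPM in those 9 populations. DSC3 stood at 53.8 and 41.7 CPM in SBO01 and SBO12, against 21.8 to 34.9 CPM, and PKP3 at 127 and 136 CPM, against 89.3 to 106 CPM. These 3 of the 10 members lay above all 9 populations in both SBO01 and SBO12, as did 16.1% of the 6097 genes. CDH1 stood at 49.3 and 38.6 CPM in SBO01 and SBO12, against 59.1 to 100.3 CPM, and DSC2 at 41.3 and 38.4 CPM, against 46.0 to 77.5 CPM. These 2 members lay below all 9 populations in both, as did 15.4% of the genes, a share near that of the members. The other 5 members overlapped the 9 populations in at least 1 of SBO01 and SBO12. High DSC3 beside low DSC2 put the ratio of DSC3 to DSC2 at 1.30 in SBO01 and 1.09 in SBO12, against 0.373 to 0.535 in the 9 populations and 0.765 in SBO05. Both libraries gave ratios above 1 in SBO01 (1.248 and 1.352) and SBO12 (1.069 and 1.102), and no other population reached 1 in either library.

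The ratios of classical cadherins and of desmogleins differed in the same sense between these populations. The CDH3 to CDH1 ratio was 3.13 in SBO01 and 3.69 in SBO12, against 2.07 to 2.74 in the 9 populations, and the DSG3 to DSG2 ratio 0.377 and 0.419, against 0.172 to 0.259. Levels of CDH3 itself were 154 and 143 CPM in SBO01 and SBO12, within or just below the 144 to 212 CPM of the 9 populations, so its ratio was carried by the lower CDH1. DSG3 stood at 26.0 and 24.3 CPM against 13.5 to 25.05 CPM, and DSG2 at 68.9 and 58.1 CPM against 64.6 to 96.6 CPM. DSP stood at 401 and 337 CPM against 198 to 363 CPM, and JUP at 235 and 221 CPM against 209.9 to 296 CPM. PERP and DSC3 passed the rule of at least 1.5-fold above the pool median in both SBO01 and SBO12, as did 1.26% of the genes. In SBO12 most cells carried more UMIs of another barcode, and without those cells the same 2 members passed. A second rule kept cells whose highest barcode had at least 10 UMIs and at least 3 times the next. By it a PKP3 UMI was found in 62.5% of thinned SBO12 cells, against 58.1 to 65.2% in the 9 populations. With barcodes as assigned these were 71.5% and 56.1 to 64.4%. By the second rule PERP also lay within the 9 (97.9%, against 93.7 to 98.2%), and DSC3 above (31.25%, against 16.9 to 25.1%).

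**Figure D3:**
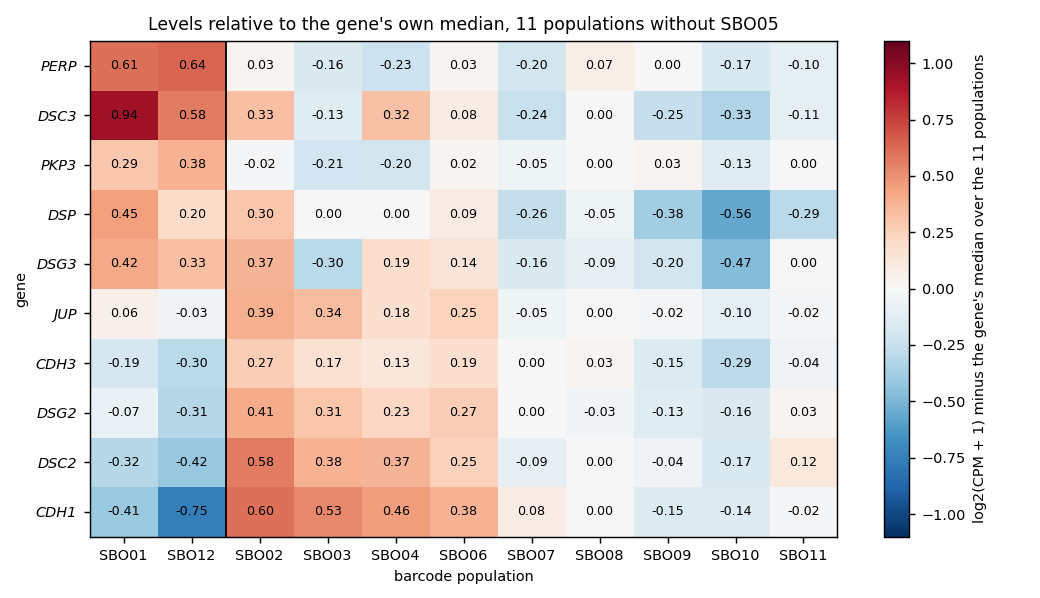
Each gene's log2(CPM + 1) in the 11 populations without SBO05, minus its own median over them, with genes in rows and populations in columns; red is higher and blue lower. In SBO01 and SBO12 the upper rows from PERP to DSG3 are above 0 and the lower rows from CDH3 to CDH1 below 0.

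Among the remaining 9 populations, SBO02, SBO03, SBO04 and SBO06 of the first pool held more of 6 members than SBO07 to SBO11 of the second pool with no overlap, where 22.9% of the 6097 genes were so ordered. CDH1 stood at 85.9 to 100.3 CPM in the 4 populations of the first pool and 59.1 to 69.5 CPM in the 5 of the second, and DSC2 at 61.8 to 77.5 and 46.0 to 56.2 CPM. CDH3, DSP, JUP and DSG2 were ordered alike, and PKP3, PERP, DSG3 and DSC3 overlapped. Pools were on different libraries, so pool and culture cannot be told apart. The order of levels within a gene was loose, since of the 11 pairs of neighbours in order of level 5 were separated in both libraries for CDH1 and DSC2, 4 for CDH3, PERP, DSG2 and DSC3, 3 for DSP and PKP3, 2 for DSG3 and 1 for JUP. For JUP the separated pair is SBO05 and the next population, SBO10.

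Over the 12 populations, DSC2 and PKIB were among the genes with profiles nearest to CDH1. Their log2(CPM + 1) profiles, each centred on its median, differed from that of CDH1 by 0.12 and 0.13 on average. For CDH3 the nearest were LSR, CRB3 and PPP1R14C (0.11, 0.11 and 0.12), ARTN and ELMO3 were among the nearest to DSP (0.12 and 0.17), and for DSG3 the nearest were the members DSP and DSC3, then ARTN (0.14, 0.14 and 0.16). Each of these was lowest in SBO05, which weighs in the measure. Over the 11 populations without SBO05 the nearest genes were SUCO, MVP and CERCAM for CDH1, RRBP1, CERT1 and MFSD12 for CDH3 and CES2, ALDH7A1 and KIF14 for DSG3. CES2 and NIN were among the nearest to DSP.

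To ask how the members vary between cells of the same population, cells were ranked within each population and library by a score and divided into a high, a middle and a low tier, so that both ends hold the same populations. A mesenchymal, a basal and a squamous score were used, none of which holds a member. The 4 libraries hold 2 pools, and nothing in the labels makes them separate cultures. Level differences between libraries are taken out as a block, so p-values set a tier difference against how it varies between these libraries. That variation may be technical and, except where the pools themselves are compared, includes differences between pools. Cells of the high and the low tier had medians of 28435 and 30157 UMIs for the mesenchymal, 28773 and 30011.5 for the basal and 30001 and 29362.5 for the squamous score.

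Along the mesenchymal score members went in both directions. The score is built on 13 genes, among them those of vimentin, fibronectin, N-cadherin and several collagens. CDH1 averaged 60.0 ± 6.95 CPM in the high tier and 48.4 ± 3.93 CPM in the low tier (SD, n = 4 libraries), higher in 4 of 4 libraries, with a log2 difference of 0.27 ± 0.05 (SE) and an adjusted p of 0.000506 by edgeR's quasi-likelihood test. In libraries 1 to 4 its values were 50.9, 58.4, 66.7 and 64.0 CPM in the high tier, against 46.4, 54.3, 46.5 and 46.5 CPM in the low tier. DSG2 was the other member to rise, by 0.14 ± 0.04 (adjusted p 0.0154, edgeR), in 3 of 4 libraries. So 2 of the 10 members rose, near the share of 16.1% of the 15290 genes tested, and 4 fell, as did 16.6% of the genes.

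Those that fell in the mesenchymal tier, in library sums over all populations, were PKP3, PERP, DSC2 and JUP. PKP3 averaged 91.2 ± 15.4 CPM in the high tier and 109 ± 13.8 CPM in the low tier, a log2 difference of -0.30 ± 0.03 (adjusted p 2.85e-08, edgeR), lower in 4 of 4 libraries. PERP averaged 523 ± 86.5 and 610.0 ± 48.5 CPM, a difference of -0.27 ± 0.03 (adjusted p 8.41e-07, edgeR), also lower in 4 of 4 libraries. DSC2 differed by -0.18 ± 0.05 (adjusted p 0.00389, edgeR) and JUP by -0.09 ± 0.03 (adjusted p 0.0129, edgeR), each lower in 3 of 4 libraries. CDH3 (-0.06), DSP (0.05), DSG3 (-0.09) and DSC3 (-0.13) did not pass. DSG3 rested on library 1, where it stood at 13.04 CPM in the high tier against 18.9 CPM in the low tier, and without that library its difference was 0.057.

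The calls of CDH1, PKP3 and PERP held when any 1 library was left out. That of DSG2 was lost without library 2, 3 or 4 (adjusted p 0.0653, 0.136 and 0.162, edgeR), that of JUP without library 1 or 2 (adjusted p 0.130 and 0.0580, edgeR) and that of DSC2 without library 1 (adjusted p 0.0609, edgeR), while DSC3 and CDH3 passed without library 4 and DSP without library 1. With tiers made from summed UMIs DSC2 was 0.038 higher in the high tier, and with no block for library 0 of the 10 members passed.

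The barcode populations did not share 1 pattern. CDH1 was higher in the high mesenchymal tier in each of the 11 populations other than SBO05, by 0.08 to 0.81 on the log2 scale with a median of 0.30. In SBO05 it was 0.99 lower there. CDH3 differed by -1.50 in SBO05 and by -0.23 to 0.20 in the others, DSC2 by -1.41 and by -0.52 to 0.15, JUP by -1.17 and by -0.19 to 0.15, and PERP by -1.04 and by -0.44 to 0.07. Although JUP fell in the library sums, it was higher in 8 of the other 11 populations and lower in 3, with a median of 0.07. DSP, which did not pass in the sums, was likewise higher in 8 and lower in 3, with a median of 0.32. PKP3 differed by -0.49 in SBO05, DSG3 by -0.77 and DSG2 by -0.28, each the lowest of the 12 populations, so that SBO05 was lowest for 8 of the 10 members. DSP, at -0.20, and DSC3, at 0.21, were within the range of the others. SBO05 is 1 sample, and this difference was not tested. The 93 SBO05 cells described above, with less VIM and more FN1 than the remaining SBO05 cells, are part of it. Their share in it was not tested.

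**Figure D4:**
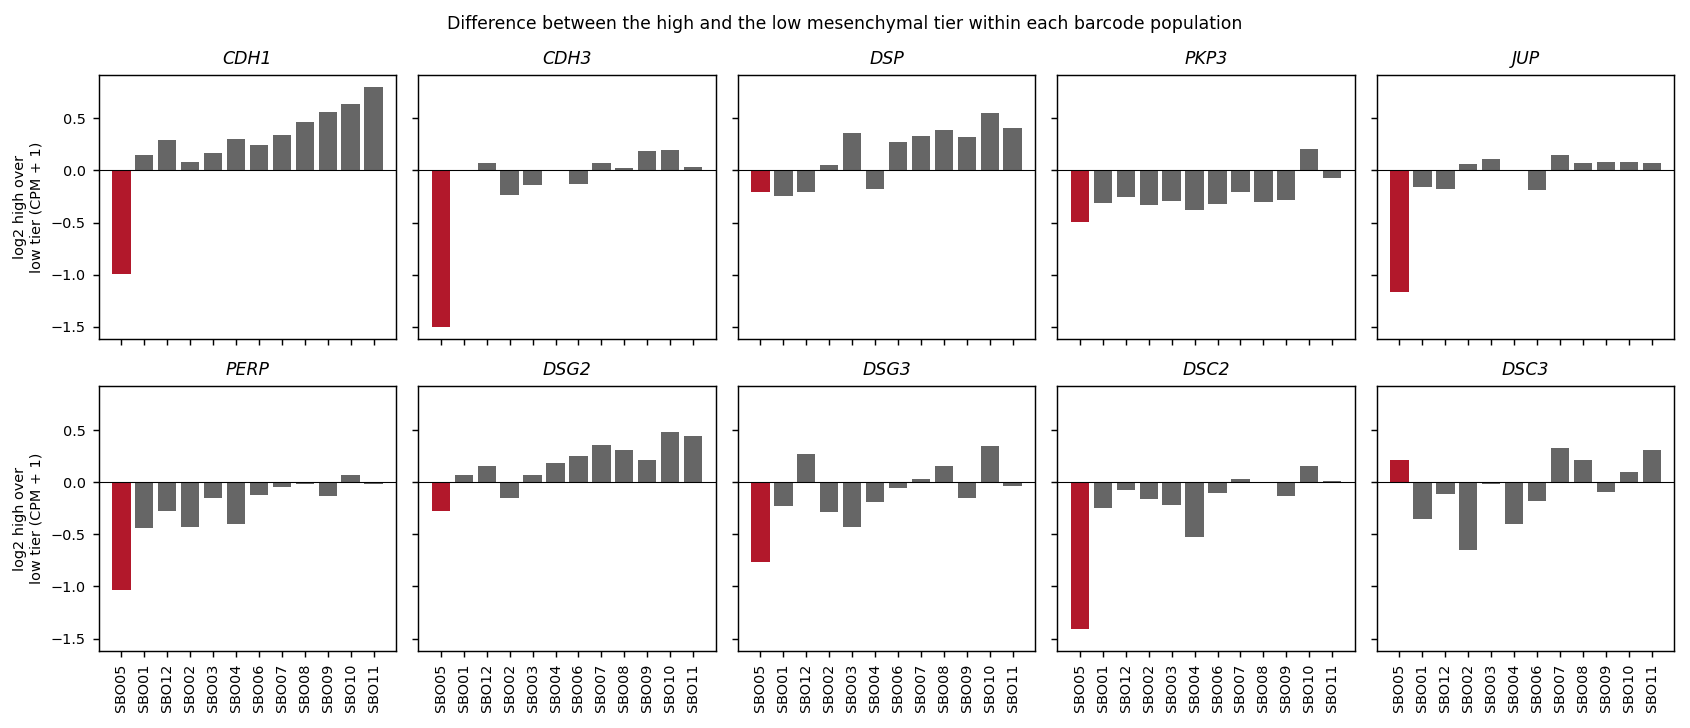
Log2 difference of CPM + 1 between the high and the low mesenchymal tier (vertical axis) within each of the 12 populations (horizontal axis), 1 panel per gene, red for SBO05. CDH1 is above 0 in the 11 grey populations and at -0.99 in SBO05, where CDH3 reaches -1.50.

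The tier effect also differed between the pools. In the second pool (libraries 3 and 4) minus the first (libraries 1 and 2), the mesenchymal tier effect of CDH1 was larger by 0.35 ± 0.06 (adjusted p 0.00161, edgeR interaction). DSC3 (0.32 ± 0.08), CDH3 (0.20 ± 0.04), PERP (0.19 ± 0.03) and DSP (0.16 ± 0.04) also passed. That is 5 of the 10 members, against 1.65% of the 15290 genes. These p-values set a difference between pools against variation between the 2 libraries of the same pool. That variation may be technical, and pool and culture cannot be told apart. Without SBO05 cells 5 members passed, and with DESeq2 1. For the basal tier 1 member passed, JUP, whose effect was 0.25 smaller in the second pool (adjusted p 0.00144, edgeR interaction), against 1.67% of the 15299 genes. With no low count filter 4 members passed there.

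All 10 members rose with the basal score, which is built on basal keratins, laminin 332 chains and hemidesmosome genes, where 18.4% of the 15299 genes rose and 18.4% fell. The largest log2 differences were those of DSG3, DSC3, PERP and DSP. DSG3 averaged 24.99 ± 2.90 CPM in the high tier and 12.7 ± 0.962 CPM in the low tier, a difference of 0.96 ± 0.06 (adjusted p 1.55e-10, edgeR). DSC3 averaged 38.6 ± 3.21 and 21.3 ± 1.06 CPM, with 0.84 ± 0.05, PERP 746 ± 66.3 and 417 ± 51.4 CPM, with 0.83 ± 0.02, and DSP 350.5 ± 30.9 and 203 ± 12.2 CPM, with 0.77 ± 0.03. CDH1 averaged 64.5 ± 4.68 CPM in the high tier and 46.8 ± 3.86 CPM in the low tier (0.45 ± 0.04) and CDH3 178 ± 13.4 and 125 ± 15.4 CPM (0.50 ± 0.03). JUP (0.47), DSG2 (0.47), DSC2 (0.42) and PKP3 (0.39) also rose. Every member was higher in the high tier in 4 of 4 libraries, and the largest adjusted p was 9.19e-08 (edgeR), that of DSC2. SBO05 had the largest difference of the 12 populations for all 10 members, for example 2.96 for DSC2 and 2.31 for CDH1, which were -0.02 to 0.65 and 0.13 to 0.56 in the other populations. The 93 SBO05 cells described above, with epithelial markers at 8221 CPM against 1190.5 CPM in the remaining SBO05 cells, are part of this too, and their share in it was not tested. With no block for library 9 of the 10 members passed.

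All 10 members also rose with the squamous score, built on S100A7 to S100A9, SPRR genes, kallikreins and involucrin, where 20% of the 15309 genes rose and 23.5% fell. Here DSC2 changed most. It averaged 61.9 ± 4.87 CPM in the high tier and 31.3 ± 3.66 CPM in the low tier, a log2 difference of 0.96 ± 0.04 (adjusted p 4.20e-15, edgeR). DSG3 (0.70), CDH1 (0.64), DSC3 (0.56), DSP (0.54), JUP (0.50) and PERP (0.49) followed. CDH1 averaged 67.7 ± 5.09 CPM in the high tier and 42.7 ± 3.85 CPM in the low tier. CDH3 (0.24), DSG2 (0.22) and PKP3 (0.18) changed least, and the largest adjusted p was 4.98e-05 (edgeR), that of PKP3. Every member was higher in 4 of 4 libraries, and with no block for library 8 of the 10 passed. DSC2 thus had the largest difference of the members with the squamous score and the ninth largest with the basal score, where DSC3 was next to the top, and these orders were not tested against each other. SBO05 had the largest squamous difference of the 12 populations for 8 members, the exceptions being DSG2 and DSG3.

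**Figure D5:**
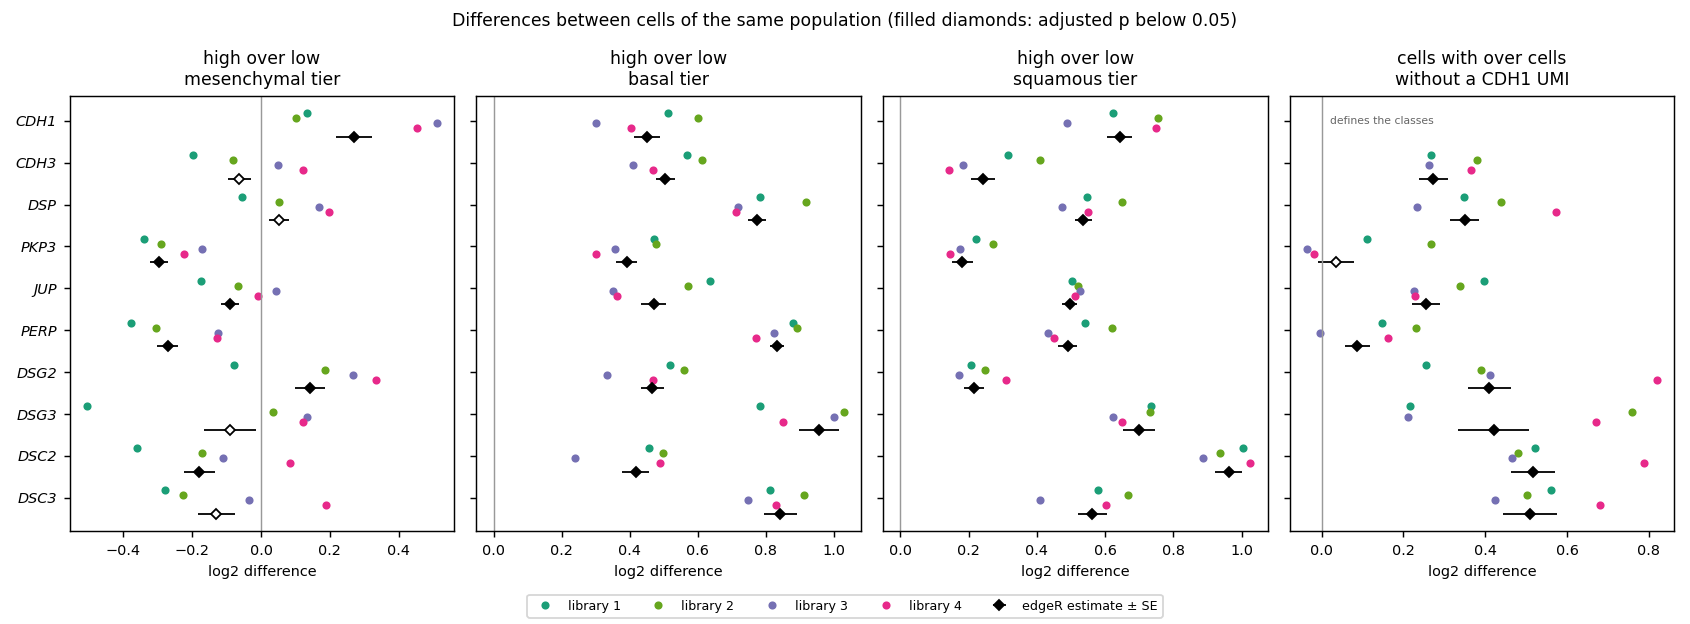
Log2 difference (horizontal axis) of each gene (rows) between the high and the low tier of 3 scores and between cells with and without a CDH1 UMI, with a coloured dot per library on the log2(CPM + 1) scale and a diamond for the edgeR estimate with its SE, filled where adjusted p is below 0.05. All diamonds lie right of 0 for the basal and squamous scores, and on both sides of 0 for the mesenchymal score.

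The other junction genes were followed along the same scores. Of the 6 other desmosome genes tested, 5 rose with the squamous score and 0 fell, with a list median of 0.84, against -0.01 for all genes tested. Among those with a mean of at least 20 CPM were PPL (0.90), PKP1 (0.78) and PKP2 (0.36). With the basal score 2 of 6 rose, PKP1 (0.70) and PPL (0.23), and with the mesenchymal score 2 of 6 fell, PKP1 (-0.17) and PKP2 (-0.12). Of the 10 catenins and nectins tested, 4 rose and 3 fell with the squamous score, with NECTIN4 at 1.55 and the junctional actin linker vinculin (VCL) at -0.15, while VCL rose by 0.36 with the mesenchymal score, where 3 rose and 2 fell. With the basal score 5 of 10 rose and 1 fell. Of the regulators of CDH1, 6 of 15 rose and 6 fell with the squamous score, 5 and 3 of 14 with the basal score and 4 and 5 of 14 with the mesenchymal score. ELF3 was among them at 0.89, -0.27 and -0.58. The regulators that rose with the mesenchymal score were SNAI2 (0.42), TWIST1 (0.51), ZEB1 (0.64) and TCF4 (0.71). All of these are below 20 CPM on average and were named after their values were seen. Beside ELF3, those that fell were ESRP1 (-0.26), ESRP2 (-0.27), OVOL1 (-0.50) and OVOL2 (-0.19). OVOL1 and OVOL2 are below 20 CPM too. Of the other cadherins 2 of 7 rose and 3 fell with the squamous score, 3 and 2 of 7 with the basal score and 3 and 2 of 5 with the mesenchymal score. CDH13 differed by -0.21, 0.50 and 0.18.

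Cells with a CDH1 UMI were then set against equal numbers without one in each population and library, 3599 cells in each class, all thinned to 10000 UMIs. Of the other 9 members, 8 rose in cells with a CDH1 UMI and 0 fell, where 7.85% of the 13084 genes tested rose and 8.87% fell. DSC2 averaged 64.0 ± 2.49 CPM in cells with a CDH1 UMI and 43.1 ± 4.21 CPM in cells without (SD, n = 4 libraries), a log2 difference of 0.52 ± 0.05 (adjusted p 1.77e-10, edgeR). DSC3 (0.51), DSG3 (0.42), DSG2 (0.41), DSP (0.35), CDH3 (0.27) and JUP (0.26) also rose, each in 4 of 4 libraries. CDH3 averaged 192 ± 16.3 CPM in cells with a CDH1 UMI and 154 ± 9.43 CPM in cells without. PERP differed by 0.09 ± 0.03 (adjusted p 0.0398, edgeR) in 3 of 4 libraries, and PKP3 by 0.04 ± 0.04 (adjusted p 0.637, edgeR), higher in 2 of 4 libraries. PERP and PKP3 had the smallest differences of the 9 here. In the library sums both fell with the mesenchymal score while CDH1 rose, but so did JUP and DSC2, and DSC2 had the largest difference here. The call of PERP was lost without library 1, 2 or 4 (adjusted p 0.117, 0.271 and 0.0922, edgeR) and without SBO05 cells (adjusted p 0.0683, edgeR). With no block for library 5 of the 9 passed, with DESeq2 6, and without cells in which another barcode was higher 7.

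Of the other junction genes, 5 of the 10 catenins and nectins tested rose with a CDH1 UMI and 0 fell, with NECTIN4 (0.46), AFDN (0.25), CTNND1 (0.23) and VCL (0.21) the largest of those with a mean of at least 20 CPM. PPL (0.67) and PKP2 (0.35) rose among 6 other desmosome genes, with 0 falling. Of the 14 regulators tested 3 rose and 3 fell, ELF3 rising by 0.33. Of the 3 other cadherins tested 0 rose and 1 fell. That was CDH2, at -0.48, which is below 20 CPM on average and was named after its value was seen. At this depth a cell without a CDH1 UMI can still carry the transcript.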

How the data were processed

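UMI counts were used as the authors deposited them, 1 raw count matrix per mRNA library with 36601 genes and 12 barcodes, per the file headers. The submitters' processing notes name hg38 and, as tools, Seurat 4.1.0, bcl2fastq 2.20.0.422 and Cell Ranger 6.0.2. A cell was kept with 1000 genes or more and no more than 15% mitochondrial UMIs. Sample barcodes were assigned by HTODemux of Seurat 5.3.0 (quantile 0.99), restricted to barcodes that were highest in at least 1% of a library's kept cells. Cells with several barcodes (5510) or none (5565) were left out, and no other doublet caller was run. Levels are UMIs summed per population, in CPM. For scores and shares each cell was thinned to 10000 UMIs, which 10233 cells reached, and the scores are means of standardised log values of genes with at least 1 CPM. Unthinned counts were summed per library and tier, thinned ones for the CDH1 classes, and tested by edgeR 4.0.16 (R 4.3.3) with library as a block, filterByExpr, TMM and the quasi-likelihood test, and p-values were adjusted by Benjamini-Hochberg over all genes tested at 0.05. The tiers of 1 library share its preparation, which is where the block comes from. SE is the size of the log2 difference divided by the root of the F statistic. Sums were made in Python 3.11.15. The fits were tested on simulated data. Library values of log2 differences are on CPM + 1 without TMM.

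Of genes that are not members, only those of 4 lists with a mean of at least 20 CPM and past the threshold are named, at most 4 per list and comparison, and the 3 genes nearest in profile, some of which are not reported here. Exceptions are named as such. Unlike that rule, CTNNB1 and CTNNA1 in SBO05 are given for comparison. Members, lists and tests were chosen with earlier results of these data known.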

Additional observations from a re-analysis of the deposited data

Results flagged for a closer look

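In 2 of 39 sets of 4 library values, 1 library stood apart from the other 3, its gap to the nearest over the whole range being above Dixon's 95% critical value. Chance flags about 1 in 20 such sets. The sets were the log2 difference of DSG3 between the high and the low mesenchymal tier (ratio 0.847), which was -0.51 in library 1 and 0.04 to 0.13 in the others, and that of DSC2 between the high and the low basal tier (ratio 0.839), which was 0.24 in library 3 and 0.46 to 0.50 in the others.

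The mesenchymal tier effect of CDH1 was -0.99 on the log2 scale in SBO05 and above 0 in each of the other 11 populations, a difference that was not tested. Between pools, second minus first, the mesenchymal tier effect differed by edgeR interaction for CDH1 (0.35, adjusted p 0.00161), CDH3 (0.20, adjusted p 0.00921), DSP (0.16, adjusted p 0.0293), PERP (0.19, adjusted p 0.000625) and DSC3 (0.32, adjusted p 0.0370). The basal tier effect differed for JUP (-0.25, adjusted p 0.00144, edgeR interaction). The interaction p-values rest on variation between libraries of the same pool.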

How the results depend on the processing

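Depth limits DSG3 most, with 122 UMIs in SBO05, and there is 1 culture per barcode. The counts of members lowest in SBO05, at least 2-fold lower there, at least 1.5-fold higher in SBO01 and SBO12, and with the lowest share of cells in SBO05 kept to within 1.5 times under every alternative run. So did the counts of members that rose in the basal and squamous tiers.

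With no replicate block, that is without pairing tiers by library, the members called in the mesenchymal tier became 0 higher and 0 lower (genes 193 and 87), those called with CDH1 detection 5 (genes 137 and 15), and the genes called were 979 and 465 in the basal and 1407 and 943 in the squamous tier. With DESeq2 1 member was higher in the mesenchymal tier and genes higher numbered 1258, 1730 and 1937 in the mesenchymal, basal and squamous tiers. CDH1 detection then gave 213 higher and 407 lower genes, and the pool differences 1 member and 53 genes (mesenchymal) and 78 genes (basal). With no low count filter the basal pool difference gave 4 members and 492 genes, where DSG3 reversed to -0.0036 from a value near 0. With thinned counts genes called were 1500 and 1626 (mesenchymal), 1743 lower (basal) and 1936 and 2096 (squamous), and DSC3 in the mesenchymal tier was 0.00525. With tiers by summed UMIs 2 members were lower in the mesenchymal tier, and DSG3 (0.0941), DSC2 (0.0377) and DSC3 (0.0503) reversed there.

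Leaving out 1 library at a time gave 1 to 3 members higher and 2 to 6 lower in the mesenchymal tier. DSG3 ranged from -0.158 to 0.0573 there, the last without library 1. CDH1 detection gave 679 to 798 higher and 578 to 897 lower genes, and PKP3 ranged from -0.0183, without library 2, to 0.0794. The causes were not tested. Of the other values, the log2 value of SBO05 over its pool median moved by more than the spread between libraries in 37 cases and kept within it in 33, and members' log2 differences kept sign and side of the threshold in 83 of 110 cases in the mesenchymal, 109 in the basal and 108 in the squamous tier.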
